A study of Mus musculus with 14 samples.

Results

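The Rab genes were taken as the rows of the count table whose symbol is Rab, a number, and at most 1 further letter and digit. This rule found 59 genes of 55228 symbols. It leaves out Rab-related genes with other names, such as the effector Rab11fip5, which were described as lists of regulators and effectors. Transcripts were counted in 14 bulk libraries of mouse epidermal cells. The mice were Lrig1CreER/Rosa-TdTomato, in which an inducible Cre recombinase expressed under Lrig1, a gene of upper hair follicle stem cells, turns on a red fluorescent protein in the cells and their descendants. The cells were Lrig1 GL Sca1+ cells of the tail, sorted by flow cytometry 8 weeks into the time course labelled pw1 and then grown for 1 week in keratinocyte medium. All libraries share this genotype, sort, time, culture and the treatment entry "none", and the labels used here give no animal age. The control group (8 libraries) came from a non-memory region of the tail and the distal group (6 libraries) from a distal memory region, so each value describes cultured progeny and not freshly isolated cells. No label says that the libraries are separate animals or cultures. The p-values therefore speak only of how these libraries vary, and that variation may be technical.

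Rab proteins are small GTPases that give each membrane compartment its identity. Loaded with GTP by a guanine nucleotide exchange factor (GEF), a Rab binds effectors that move, tether and fuse vesicles, and a GTPase-activating protein (GAP) switches it off. Prenyl groups anchor Rabs in membranes, and GDP dissociation inhibitors carry the inactive form through the cytosol. In keratinocytes this traffic delivers and recycles integrins, cadherins and growth factor receptors, and it takes up melanosomes from melanocytes.

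Several Rabs exist as close paralogs that differ in base composition while they encode much the same protein, and the results below differ between such paralogs. The sequences that follow show this for 7 members. Each is a stretch of 60 coding bases around the phosphate-binding loop, where GTP is held, written 5′ to 3′ on the gene's own strand, with capitals marking each G or C at the third position of a codon. Positions are in GRCm38, and the span of Rab1a and Rab1b includes an intron because the stretch runs from exon 2 into exon 3 of 6.
Rab1a: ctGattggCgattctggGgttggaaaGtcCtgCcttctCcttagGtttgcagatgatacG
Rab1b: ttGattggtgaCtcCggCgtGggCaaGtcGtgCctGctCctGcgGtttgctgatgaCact
Rab5a: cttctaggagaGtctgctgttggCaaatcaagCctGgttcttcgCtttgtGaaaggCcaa
Rab5c: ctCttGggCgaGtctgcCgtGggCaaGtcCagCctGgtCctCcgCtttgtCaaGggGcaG
Rab11a: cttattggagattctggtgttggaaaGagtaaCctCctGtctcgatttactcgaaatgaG
Rab11b: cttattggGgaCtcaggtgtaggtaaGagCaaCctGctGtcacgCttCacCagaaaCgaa
Rab25: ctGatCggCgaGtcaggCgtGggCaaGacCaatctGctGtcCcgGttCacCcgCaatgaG

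The Rab1a stretch lies at chr11:20215652-20218821 on the plus strand and the Rab1b stretch at chr19:5104920-5105228 on the minus strand. These 2 stretches share 46 of 60 bases, 12 of the 14 differences are at codon position 3, and all 20 codons encode the same residue. Rab1a has G or C at position 3 in 9 of 20 codons and Rab1b in 14. The Rab5a stretch (chr17:53483985-53484044, plus strand, exon 2 of 6) and the Rab5c stretch (chr11:100719946-100720005, minus strand, exon 2 of 6) also share 46 bases and all 20 residues, with G or C at position 3 in 7 and 18 codons. Rab11a (chr9:64728365-64728424, minus strand, exon 2 of 5) and Rab11b (chr17:33749913-33749972, minus strand, exon 2 of 5) again share 46 bases and 20 residues, with 5 and 11 such codons. Rab25 (chr3:88545192-88545251, minus strand, exon 2 of 5), the epithelial member of the Rab11 group, shares 43 bases and 18 of 20 residues with Rab11a and has 17 such codons. In each of the 3 pairs, and for Rab25 against Rab11a, the gene with more G and C in the stretch also had the higher GC content over its transcripts.

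Total counts were 4515646 to 7458872 in control and 2137934 to 4513518 in distal libraries, with no overlap, and no unique molecular identifiers are in the table. In each library the log2 deviation of genes from their mean over all libraries sloped with transcript GC content, by -0.60 to -0.33 per 10 percentage points in control and 0.22 to 0.91 in distal libraries. Distal libraries 3 and 4 had the smallest distal slopes (0.22 and 0.34) and the largest distal totals. The sample descriptions split the libraries into set Q (6 control), set R (2 control), set S (2 distal) and set T (4 distal), so set, depth, GC slope and region cannot be told apart. Of the marker lists, 7 basal keratinocyte genes summed to 6110 to 9850 CPM (counts scaled by library size) in control libraries. In distal libraries they summed to 10000 to 18300 CPM, with 4 higher and 2 lower of 6 tested. Among all tested genes 24.3% were higher and 24.1% lower. Krt14 was the largest part of the basal sum, at 2970 to 5850 CPM in control and 5750 to 11100 in distal libraries. Trp63 went the other way, at 183 to 236 and 90.8 to 127 CPM, as did Itga6, at 403 to 740 and 221 to 315 CPM. The 6 suprabasal genes summed to 60.6 to 113 and 123 to 205 CPM, with 1 higher and 0 lower of 3 tested. Sbsn was the largest part of the suprabasal sum, at 38.1 to 65.6 CPM in control and 102 to 190 in distal libraries. Krt10 was at 5.31 to 40.1 and 3.21 to 19.2 CPM. Summed melanocyte markers were 15.4 to 47.5 and 12.7 to 41.0 CPM, with Dct and Sox10 at 0 in all libraries, and Merkel cell markers were all 0. Summed immune markers reached 0.473 and 1.76 CPM, and endothelial markers 9.86 and 9.51. Fibroblast markers summed to 5.52 to 273 and 18.6 to 181 CPM, with Lum at 0. What part these differences have in the results below was not tested. In bulk samples, fewer cells of a type and less RNA per cell cannot be told apart.

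Rab transcripts took 0.455% to 0.599% of the counts in control libraries (median 0.519%) and 0.379% to 0.582% in distal libraries (median 0.425%), and the ranges overlapped. Counts were seen for 47 to 49 of the 59 genes in each control library and for 43 to 47 in each distal library. Of all 59, 41 had enough counts to be tested. A further 17 had some counts but were too low for the test: Rab2b, Rab3a, Rab3b, Rab3c, Rab4b, Rab9b, Rab17, Rab19, Rab26, Rab33a, Rab36, Rab37, Rab39b, Rab40b, Rab42, Rab43 and Rab44. Rab39 had no count in any library. The untested group holds Rab3a, Rab3b and Rab3c, the synaptic vesicle Rabs, and Rab26 and Rab37, which act on secretory granules. Rab4b, a Rab of recycling endosomes, was at 0.186 to 2.14 CPM in control and 1.76 to 4.84 in distal libraries and was not tested.

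Levels between genes were compared per kilobase of transcript, as TMM-scaled CPM per kb. By this measure Rab1a, which acts between endoplasmic reticulum (ER) and Golgi, was the most abundant Rab, at 368 ± 57.4 (SD, n = 8) in control and 196 ± 95 (SD, n = 6) in distal libraries. Rab2a, also of the ER-Golgi route, followed at 292 ± 35.8 and 218 ± 71.3, and Rab11a, the Rab of recycling endosomes, at 267 ± 31.2 and 139 ± 79. The next 5 by mean level over all libraries were Rab32, Rab10, Rab6a, Rab25 and Rab7, with control means of 124 ± 32, 135 ± 19, 130 ± 22.4, 60.9 ± 13.4 and 90.3 ± 23.9. Their distal means were 116 ± 51.7, 73.4 ± 24.8, 64.3 ± 12.1, 150 ± 21.1 and 98.5 ± 24.4 CPM per kb. In control libraries the means of Rab2a and Rab11a lay within their spread of each other, as did those of Rab32, Rab10 and Rab6a, while Rab25 stood below these 3. In distal libraries Rab25 was on average above these 3 and at a level like that of Rab11a.

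**Figure D1:**
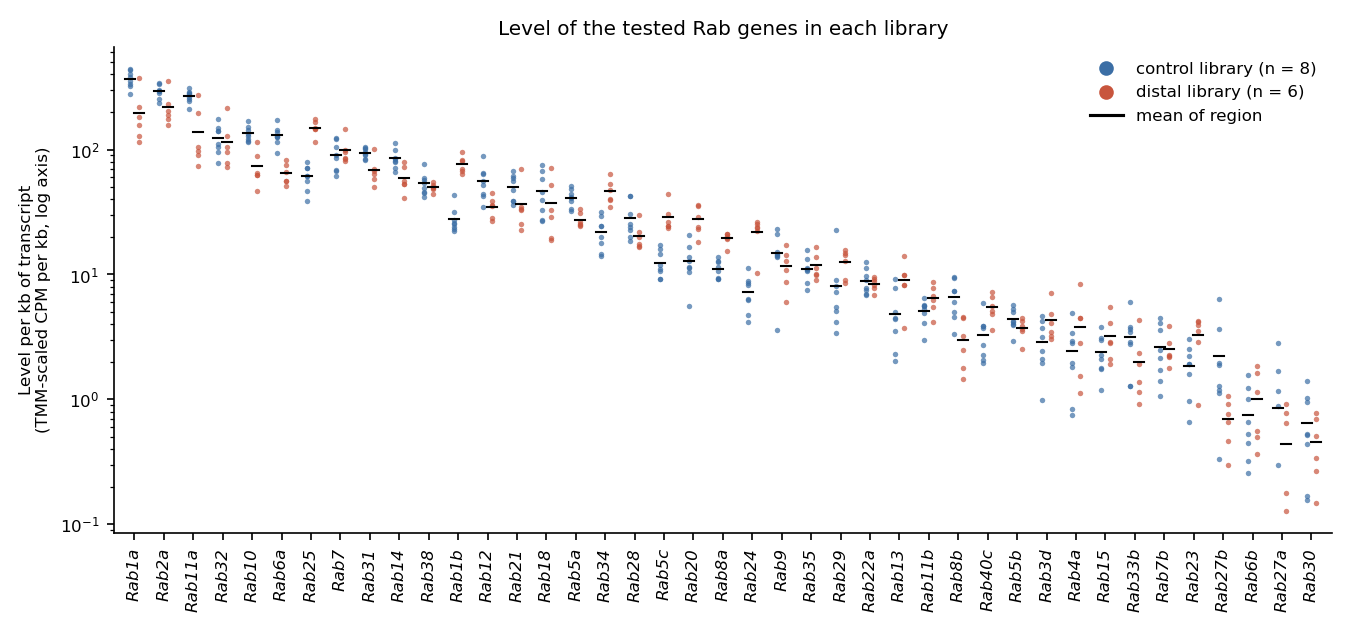
Level of the 41 tested Rab genes per kilobase of transcript (TMM-scaled CPM per kb, log axis) in each control (blue) and distal (red) library, with the mean of each region as a bar and genes ordered by mean level; libraries without a count are not drawn. Rab1a leads at 368 in control and 196 in distal libraries, and the distal points of Rab25, Rab1b and Rab5c lie above the control points.

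Between the regions, 8 Rab genes were higher in distal libraries and 11 were lower in edgeR's quasi-likelihood F test (Benjamini-Hochberg adjusted p under 0.05 over 11757 tested genes), and 22 did not pass. Among all tested genes 48.3% passed, 24.3% higher and 24.1% lower, so the 19 of 41 Rab genes are a share near the background. With upper-quartile scaling the split was 11 higher and 8 lower, against 27.7% and 18.7% of all genes. With the log2 total count as a covariate 2 were higher and 0 lower in edgeR (10 and 1 at an unadjusted p under 0.05), against 5.21% and 2.89% of all genes. Because the total counts of the regions did not overlap, this covariate goes with region, and calls lost in that fit cannot tell depth from region. Among libraries over 4000000 counts 3 were higher and 0 lower (6 and 3 unadjusted), against 6.11% and 2.78%, and without set Q 6 and 3, against 9.48% and 8.5%. These percentages are of genes past the adjusted threshold, and no share of all genes is given for the unadjusted counts. The libraries over 4000000 counts are all 8 control libraries but only distal libraries 3 and 4, so depth, group size and GC slope changed together. The median log2 fold change, distal minus control, was -0.10 for the 41 Rab genes and -0.16 for all tested genes, and upper-quartile scaling moved the latter to near 0. All 6 distal libraries lay above all 8 control libraries for 5 Rab genes (Rab1b, Rab5c, Rab8a, Rab25 and Rab34), against 12.7% of all tested genes. For Rab6a alone all distal libraries lay below all control libraries, against 5.65% of all tested genes.

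**Figure D2:**
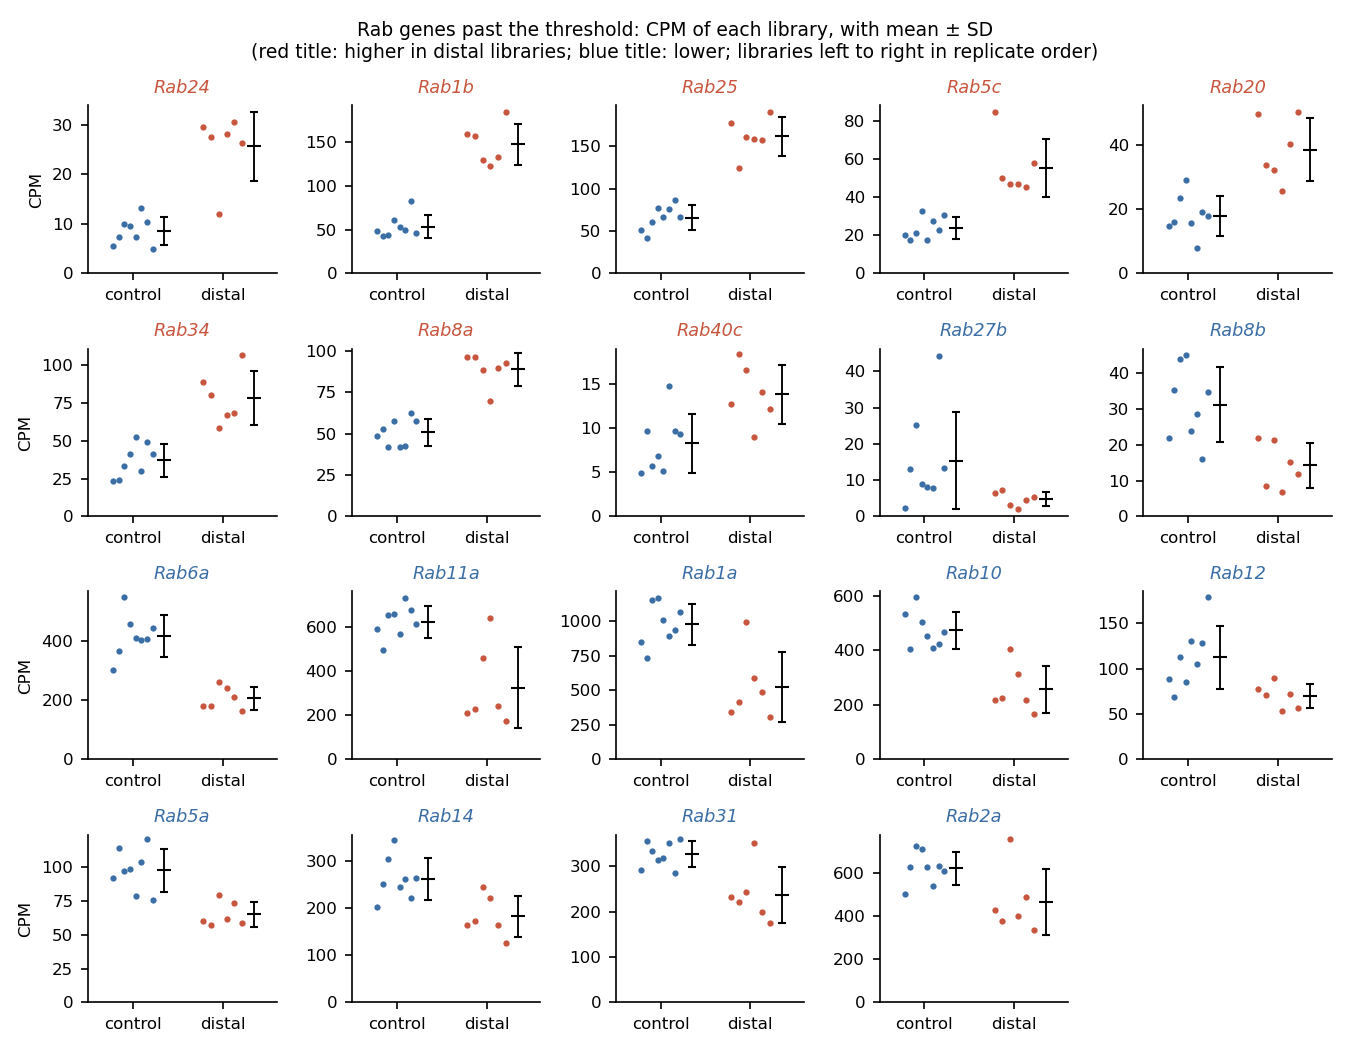
TMM-scaled CPM of each library for the 19 Rab genes past the threshold, in control (blue) and distal (red) libraries, with mean ± SD beside the points; axes start at 0. Genes with red titles were higher in distal libraries and those with blue titles lower, and the regions do not overlap for Rab1b, Rab5c, Rab8a, Rab25, Rab34 and Rab6a.

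Of the Rabs of ER and Golgi, 9 of 16 were tested, of which 2 rose (Rab1b and Rab34) and 3 fell (Rab1a, Rab2a and Rab6a), with a median log2 fold change of -0.42. Rab1a had control values of 736 to 1170 CPM (median 970) and distal values of 306 to 994 (median 451), a log2 difference (distal minus control) of -0.90 ± 0.22 (SE; edgeR adjusted p = 0.0031). Its distal library 3, at 994 CPM, lay within the control range, and the other 5 lay below all control libraries. Rab1b, which serves the same step, went the other way, from 43 to 82.4 CPM (median 48.7) in control to 122 to 184 (median 144) in distal libraries, a log2 difference of 1.46 ± 0.16 (edgeR adjusted p = 3.6e-06). Every distal library exceeded every control library for Rab1b.

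Rab6a, which returns membrane from endosomes to the Golgi and from there to the ER, was at 302 to 550 CPM (median 409) in control and 164 to 263 (median 196) in distal libraries. Its log2 fold change was -1.02 ± 0.15 (edgeR adjusted p = 4.6e-05), and the regions did not overlap. Rab6a shares 708 exon bases with Mrpl48 on the opposite strand, which had 1115 counts in all against 23011 for Rab6a and rose by 0.87 ± 0.32 on the log2 scale. Rab2a was at 501 to 725 CPM (median 628) and 335 to 757 (median 416), with a log2 difference of -0.42 ± 0.17 (edgeR adjusted p = 0.048). The highest Rab2a value of all 14 libraries was that of distal library 3, and the call was lost on leaving out any of 12 of the 14 libraries, with adjusted p up to 0.21. Rab34, which positions lysosomes and is needed for some primary cilia, was at 23.7 to 52.9 CPM (median 37.3) and 58.7 to 107 (median 74.2), without overlap. It rose by 1.08 ± 0.20 on the log2 scale (edgeR adjusted p = 0.00036). Rab18, a Rab of ER and lipid droplets, was at 304 ± 122 CPM (SD, n = 8) in control and 242 ± 135 (SD, n = 6) in distal libraries and did not pass (edgeR adjusted p = 0.4).

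All 8 Rabs placed in the early endosome group were tested, and 3 rose (Rab5c, Rab20 and Rab24) while 2 fell (Rab5a and Rab31), with a median of -0.16. Rab5a and Rab5c both drive fusion of early endosomes. Rab5a was at 76 to 121 CPM (median 97.9) in control and 57.4 to 79.3 (median 61) in distal libraries, a log2 difference of -0.58 ± 0.15 (edgeR adjusted p = 0.0034). Only the highest distal library, library 3, reached the lower end of the control range. Rab5a did not pass without set Q (-0.57, edgeR adjusted p = 0.11) or without set S (-0.44, 0.06). Rab5c was at 17.7 to 32.9 CPM (median 22) in control and 45.4 to 84.7 (median 48.5) in distal libraries, a log2 difference of 1.21 ± 0.20 (edgeR adjusted p = 0.0001), and the regions did not overlap. The remaining paralog, Rab5b, was at 14 ± 2.8 CPM (SD, n = 8) and 11.8 ± 2.16 (SD, n = 6) and did not pass (-0.24, edgeR adjusted p = 0.4).

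Rab20, an endosomal and phagosomal Rab, was at 7.81 to 28.9 CPM (median 16.9) in control and 25.5 to 50.1 (median 36.9) in distal libraries, a log2 difference of 1.10 ± 0.25 (edgeR adjusted p = 0.0016). The ranges met between 25.5 and 28.9 CPM, where 1 distal and 1 control library lay. Rab24, an atypical Rab linked to autophagy, was at 4.88 to 13.2 CPM (median 8.52) and 11.9 to 30.5 (median 27.7), a log2 difference of 1.58 ± 0.27 (edgeR adjusted p = 0.00014). Distal library 3, at 11.9 CPM, was the one distal library in the control range. The value of Rab24 is uncertain, because it shares 1258 exon bases with Prelid1 on the opposite strand and the sources used here do not give the use of strand in counting. Prelid1 had 19042 counts in all against 882 for Rab24 and rose by 1.79 ± 0.19 on the log2 scale. Rab31, which links the Golgi to endosomes, was at 285 to 361 CPM (median 326) and 175 to 352 (median 226), a log2 difference of -0.46 ± 0.15 (edgeR adjusted p = 0.015). Distal library 4 lay in the upper part of the control range, and the Rab31 call was lost on leaving out any of 7 libraries. Rab21, which carries integrins, and Rab22a did not pass (-0.46 and -0.09, edgeR adjusted p = 0.1 and 0.67).

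Among Rabs of recycling endosomes 7 of 9 were tested, with 1 higher (Rab25), 2 lower (Rab11a and Rab14) and a median of 0.36. Rab11a was at 496 to 732 CPM (median 635) in control and 172 to 641 (median 236) in distal libraries, a log2 difference of -0.94 ± 0.25 (edgeR adjusted p = 0.0051). Its distal libraries were spread widely: library 4, at 641 CPM, was within the control range, library 3 was at 460, and the other 4 were at 172 to 243. Rab25, which is expressed mainly in epithelia, was at 42.1 to 86.4 CPM (median 66.6) and 124 to 191 (median 160), a log2 difference of 1.30 ± 0.16 (edgeR adjusted p = 8.3e-06). The lowest distal library of Rab25 stood above the highest control library, and the distal libraries were less spread in proportion to their mean (coefficient of variation 14.1%) than those of Rab11a (56.7%). Rab11b was at 18.2 to 39.4 CPM (median 33) and 25.5 to 53.1 (median 39.5) and did not pass (0.36 ± 0.20, edgeR adjusted p = 0.15). Rab14, which works between Golgi and recycling endosomes, was at 202 to 345 CPM (median 256) and 125 to 245 (median 169), with a log2 difference of -0.52 ± 0.16 (edgeR adjusted p = 0.014). Its ranges overlapped, and the call was lost without distal library 1, 2, 5 or 6, with adjusted p of 0.051 to 0.077. Rab35, Rab15 and Rab4a did not pass.

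None of the 4 tested Rabs of late endosomes and lysosomes passed (edgeR; median 0.04). Rab7, which directs late endosomes to fuse with lysosomes, was at 133 to 265 CPM (median 191) in control and 174 to 315 (median 197) in distal libraries (0.13 ± 0.19, edgeR adjusted p = 0.59). Rab7b, Rab9 and Rab29 had log2 fold changes of -0.04, -0.36 and 0.63, with SE of 0.32 or more. The 2 Rabs of lysosome-related organelles, Rab32 and Rab38, which in melanocytes bring enzymes to melanosomes, did not pass either. Rab32 was at 169 to 377 CPM (median 270) and 157 to 458 (median 215), and Rab38 at 65.4 to 121 (median 81.7) and 69.7 to 87.2 (median 78.3). Both had a log2 difference of -0.10, and that of Rab32 turned to 0.04 with upper-quartile scaling. Rab32 and Rab38 had counts in every library. Of the 7 melanocyte markers, Mitf was at 10.5 to 45.7 CPM and had counts in every library, Pmel had 107 counts in all, Mlana 10, Tyr and Tyrp1 1 each, and Dct and Sox10 none; their part in the levels of Rab32 and Rab38 was not tested.

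In the group labelled post-Golgi and surface delivery 6 of 7 were tested. Of these 2 rose (Rab8a and Rab40c) and 3 fell (Rab8b, Rab10 and Rab12), with a median of 0.03. Each Rab was placed in a single group, although the roles given here for Rab12, Rab24, Rab34 and Rab40c differ from the label of their group. Rab8a and Rab8b both carry vesicles from Golgi and recycling endosomes to the plasma membrane. Rab8a was at 41.7 to 62.3 CPM (median 50.6) in control and 70.0 to 96.3 (median 91.1) in distal libraries, a log2 difference of 0.81 ± 0.14 (edgeR adjusted p = 0.0002). Distal library 4 was the lowest of the distal libraries and still above all control libraries. Rab8b was at 15.9 to 44.9 CPM (median 31.6) and 6.89 to 21.8 (median 13.5), a log2 difference of -1.13 ± 0.30 (edgeR adjusted p = 0.0054), with overlap at the lower end of the control range. Rab8b did not pass without set Q (-0.79, edgeR adjusted p = 0.25) or without set T (-1.03, 0.1). Rab10, which supports basolateral delivery and insertion of glucose transporters, was at 405 to 595 CPM (median 461) and 165 to 406 (median 223), a log2 difference of -0.88 ± 0.18 (edgeR adjusted p = 0.00073). Of the distal libraries, library 3 alone reached the control range.

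Rab12, which takes the transferrin receptor to lysosomes, was at 69.1 to 179 CPM (median 109) and 53.7 to 89.6 (median 71.3), with a log2 difference of -0.68 ± 0.20 (edgeR adjusted p = 0.0088). The ranges overlapped, and without distal library 6 the adjusted p was 0.052. Rab12 also did not pass without set R (-0.40, edgeR adjusted p = 0.085), without set T (-0.60, 0.15) or with counts summed per set (-0.64, 0.08). Its control mean was 98.7 CPM in set Q and 154 in set R. Rab40c, which recruits a ubiquitin ligase, was at 4.93 to 14.7 CPM (median 8.08) and 8.95 to 18.3 (median 13.4), with a log2 difference of 0.74 ± 0.29 (edgeR adjusted p = 0.044). That call was lost on leaving out any of 5 libraries. Rab13, a Rab of tight junctions, did not pass, at 5.36 ± 2.78 CPM (SD, n = 8) and 10 ± 3.76 (SD, n = 6) (0.90 ± 0.39, edgeR adjusted p = 0.066).

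Of 9 Rabs of regulated secretion, 3 were tested and 1 fell. This was Rab27b, which docks secretory granules and multivesicular bodies at the membrane, at 2.28 to 44.2 CPM (median 10.9) in control and 2.07 to 7.32 (median 4.88) in distal libraries. Its log2 fold change was -1.70 ± 0.53 (edgeR adjusted p = 0.013). The control libraries were uneven, with a coefficient of variation of 87.4%, a mean of 10.9 CPM in set Q and 28.8 in set R, and the adjusted p was 0.053 without control library 7. Rab27b also did not pass without set R (-1.10, edgeR adjusted p = 0.079), without set T (-1.16, 0.3) or with limma-voom (-1.48, 0.11). Its paralog Rab27a, which moves melanosomes, was at 2.73 ± 3.22 and 1.4 ± 1.23 CPM and did not pass (-0.96 ± 1.04, edgeR adjusted p = 0.46). Rab3d did not pass (0.56 ± 0.32). Of 3 Rabs placed with cilia or no other group, Rab23, an inhibitor of Hedgehog signalling, had the larger difference, 8.05 ± 3.4 CPM (SD, n = 8) against 14.1 ± 5.45 (SD, n = 6) (0.80 ± 0.37, edgeR adjusted p = 0.079), and Rab28 had -0.47 (edgeR adjusted p = 0.092). Neither passed.

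Counts of paralogs were also set against each other within each library, which removes the library's total. The ratios use the same counts as the calls above and are a description, with no test. They cover the 8 pairs of same-numbered tested paralogs without Rab27a, which had no count in some libraries. The ratio of Rab1b to Rab1a counts was 0.0384 to 0.0883 in control (median 0.0535) and 0.13 to 0.602 in distal libraries (median 0.324), a mean difference of 2.49 in log2 ratio. No distal library overlapped with control, and Rab1b had fewer counts than Rab1a in all libraries. Rab5c to Rab5a was 0.155 to 0.399 (median 0.223) in control and 0.592 to 1.41 (median 0.814) in distal libraries, a difference of 1.79, again without overlap.

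Rab8a to Rab8b was 0.956 to 3.92 (median 1.58) in control and 4.14 to 11.4 (median 6.89) in distal libraries, a log2 difference of 2.0, and Rab5c to Rab5b was 1.06 to 2.64 and 3.29 to 6.34, a difference of 1.45; neither pair overlapped. Rab11b to Rab11a was 0.0278 to 0.0608 and 0.0398 to 0.274, a difference of 1.45 with overlap. Rab6b to Rab6a differed by 1.43, with overlap and at low Rab6b counts. For Rab5b to Rab5a and Rab7 to Rab7b the differences were 0.35 and 0.07, with overlap. In all 8 pairs the numerator was the paralog with the higher transcript GC content, as the median over a gene's transcripts. By this measure the size of the difference did not follow the gap in GC content in every pair. Rab6b and Rab6a had the widest gap (58.6% and 41.3%) but not the largest difference, at low Rab6b counts. By the longest coding transcript these genes had 51.4% and 44.6%, and Rab1b and Rab1a, the pair with the largest difference, had 58.9% and 42.0%. Rab7 was then below Rab7b (48.7% and 49.1%). The sources used here do not give how reads that match several paralogs were counted.

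**Figure D3:**
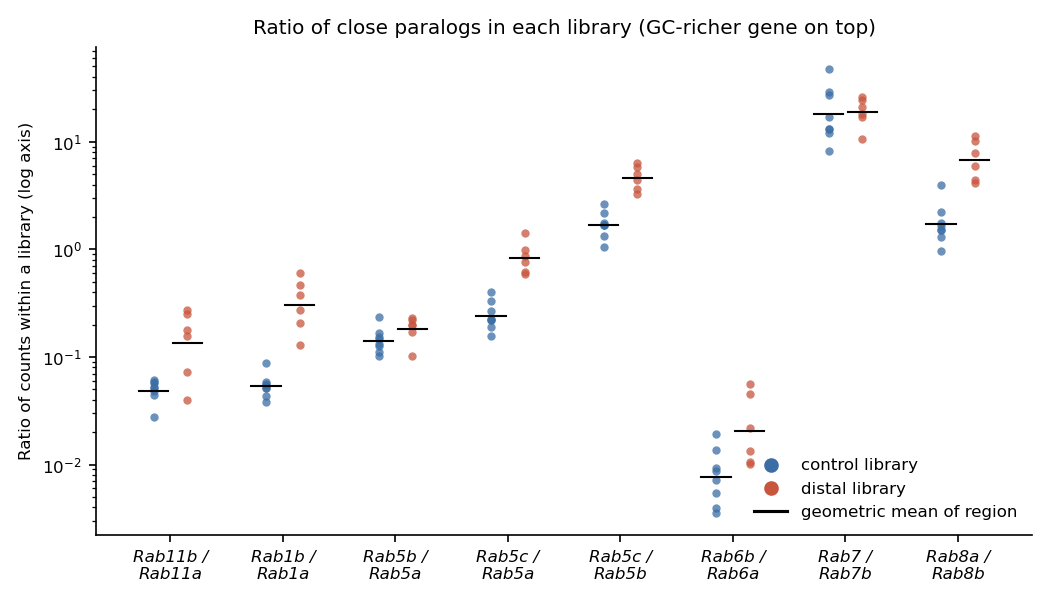
Ratio of the counts of 2 paralogs within each control (blue) and distal (red) library for 8 pairs, on a log axis, with the geometric mean of each region as a bar. The gene with the higher GC content, as the median over its transcripts, is the numerator. The regions are apart for Rab1b to Rab1a, Rab5c to Rab5a, Rab5c to Rab5b and Rab8a to Rab8b and overlap for the other 4 pairs.

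Across the 41 tested Rab genes the log2 fold change went with the GC content of the transcript (median over a gene's transcripts; Pearson's r = 0.79, n = 41 genes, which share libraries and are not independent replicates). Over all genes with a GC value the same correlation was 0.70 (n = 11654 genes). By this measure the 8 higher members had a GC content of 50.0% to 56.9% (median 56.0%) and the 11 lower members of 40.6% to 49.6% (median 43.0%), so the groups did not overlap. By the longest coding transcript the ranges met, at 49.4% to 59.5% and 37.9% to 49.4%. By part of the gene, r was 0.83 with the GC content of the 3′ untranslated region (48.4% to 59.8% in higher and 34.1% to 46.7% in lower members), 0.65 with that of the coding sequence and 0.61 with that of codon position 3. With the GC content of the 300-base RefSeq promoter windows (GRCm38.p6, 34 of 41 members matched) it was -0.04, and the ranges of higher and lower members were 58.0% to 75.3% and 56.3% to 74.7%. For the coding sequence the ranges of higher and lower members also overlapped, at 50.0% to 57.3% and 42.3% to 54.1%. For codon position 3 they overlapped too, at 64.0% to 75.4% and 31.6% to 67.1%. Of the 7 members whose stretches are printed above, Rab5c, Rab1b and Rab25 rose, Rab5a, Rab1a and Rab11a fell, and Rab11b did not pass; the stretches of Rab11b and Rab1a have the same GC content (50.0%).

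**Figure D4:**
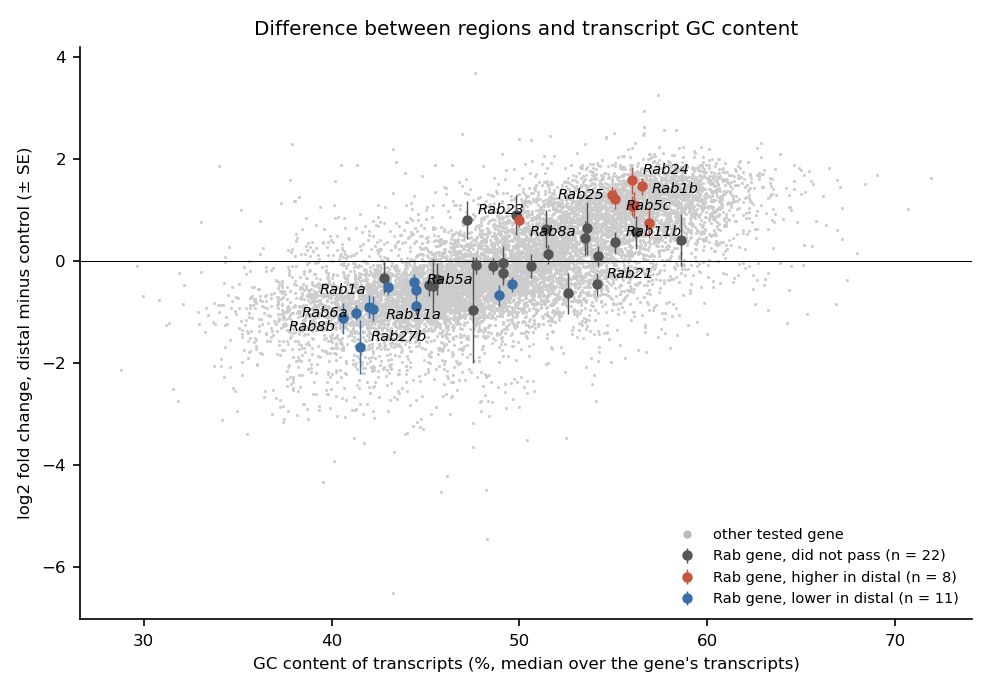
Log2 fold change, distal minus control, against transcript GC content (percent) for all tested genes (grey) and the 41 tested Rab genes, with SE bars; red points were higher, blue points lower and dark points did not pass. The Rab genes follow the slope of the other genes, from Rab8b at 40.6% to Rab1b at 56.5%, and Rab8a, Rab13 and Rab23 lie above the other Rab genes of like GC content.

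When each library's trend with GC content and length was fitted over all genes and removed, 4 Rab genes were higher and 1 was lower, against 18.4% of 11654 genes called (8.75% higher, 9.65% lower). After the removal r with the GC content that it used was -0.02, which follows from the fit itself, and r was 0.26 with the GC content of the longest coding transcript and 0.29 with that of the 3′ untranslated region. Rab1b kept a log2 difference of 0.51 ± 0.13 (edgeR adjusted p = 0.0091), Rab25 of 0.53 ± 0.15 (edgeR adjusted p = 0.02) and Rab8a of 0.77 ± 0.16 (edgeR adjusted p = 0.0025). Rab23 passed in this fit at 1.24 ± 0.38 (edgeR adjusted p = 0.03). The other 5 members that had risen did not pass: Rab24 was at 0.67 ± 0.25 (edgeR adjusted p = 0.067), Rab5c at 0.40, Rab20 at 0.19, Rab34 at 0.16 and Rab40c at -0.11. None of the 11 members that had fallen passed. Rab12 was at -0.57 ± 0.21 (edgeR adjusted p = 0.073), Rab27b at -0.68 ± 0.54, Rab31 at -0.32 and Rab11a at -0.29. Rab1a was at -0.14, Rab10 at -0.13, Rab6a at -0.08 and Rab8b at -0.05, and Rab5a, Rab14 and Rab2a turned to 0.15, 0.14 and 0.26. The single lower member was Rab21 (-0.93 ± 0.27, edgeR adjusted p = 0.022).

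The GC content assigned to a gene bears on these values. Rab21 had 54.1% as the median of its transcripts and 42.7% in its longest coding transcript, and Rab11b had 55.1% and 48.1%. With the longest coding transcript in place of the median, an alternative chosen after the data were seen, 3 Rab genes were higher and 2 lower, against 16.2% of all genes (7.71% higher, 8.48% lower). Rab8a (0.94 ± 0.14, edgeR adjusted p = 0.00027) and Rab23 (1.28 ± 0.38, edgeR adjusted p = 0.028) were higher in both fits. Rab11b passed in this fit alone (0.71 ± 0.21, edgeR adjusted p = 0.026), Rab6a (-0.44 ± 0.12, edgeR adjusted p = 0.018) and Rab12 (-0.64 ± 0.21, edgeR adjusted p = 0.044) were lower, Rab21 was at 0.29 (edgeR adjusted p = 0.3), and Rab1b and Rab25 no longer passed (0.31 and 0.37, edgeR adjusted p = 0.089 and 0.11). Rab8a was thus the one member past the threshold as deposited and with both removals. Rab8a did not pass in 4 other settings: with the trend removed on counts summed per set (0.80, edgeR adjusted p = 0.086), with the total count as a covariate (0.60, 0.14), among the libraries over 4000000 counts (0.66, 0.071) and without set Q (0.60, 0.083). Total count goes with region, so the covariate fit cannot tell depth from region for Rab8a either.

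**Figure D5:**
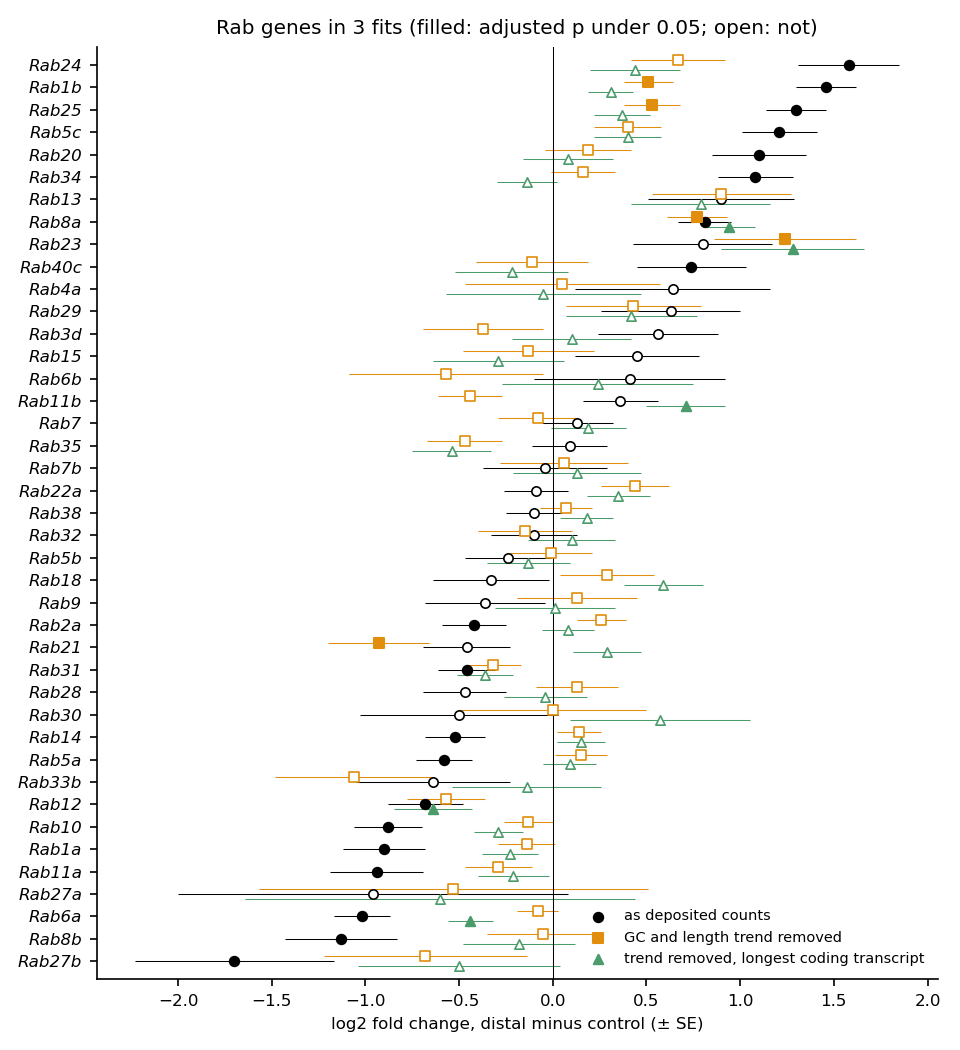
Log2 fold change, distal minus control (± SE), of the 41 tested Rab genes on the deposited counts (black), with the GC and length trend removed (orange) and with the trend removed by the longest coding transcript (green); filled symbols have an edgeR adjusted p under 0.05. The values of Rab1b, Rab5c, Rab1a and Rab6a move toward 0 once the trend is removed, and Rab8a stays at 0.77 to 0.94.

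Within a region no Rab gene and none of 11757 genes passed between control sets R and Q or between distal sets T and S in edgeR (0.0% called). These contrasts set 2 libraries against 6 and 4 against 2, so the lack of calls does not show that the sets are alike. Set T minus set S was 0.79 ± 0.38 for Rab11a, 0.65 ± 0.34 for Rab1a and 0.86 ± 0.49 for Rab18 on the log2 scale. The median over the 41 Rab genes was 0.06 for R minus Q and 0.10 for T minus S. At an unadjusted p under 0.05 in edgeR there were 969 and 921 of 11757 genes in the control and distal contrasts. Of these, 4 were Rab genes in the control contrast (Rab3d, Rab12, Rab27a and Rab27b) and 0 in the distal one. With counts summed per set, so that 2 control sums were set against 2 distal sums, 7 Rab genes were higher and 3 lower, against 30.5% of all genes (18.8% higher, 11.7% lower). The 7 were Rab1b (edgeR adjusted p = 0.0023), Rab25 (0.003), Rab24 (0.0035), Rab5c (0.0043), Rab34 (0.0085), Rab20 (0.01) and Rab8a (0.019), and the 3 were Rab6a (0.021), Rab27b (0.023) and Rab11a (0.049).

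The genes that act on Rabs were described from 5 lists with 157 genes in the table, of which 142 were tested: 36 rose, 33 fell and the median log2 fold change was -0.13, again near the background of 24.3% and 24.1%. With the trend removed 7 of 142 were higher and 11 lower, against 8.75% and 9.65% of all genes. Of 9 genes for prenylation and delivery, 3 rose and 2 fell. Those that rose were Icmt, which methylates the prenylated end (1.36 ± 0.20, edgeR adjusted p = 2.7e-05), Rabggta, the alpha subunit of the Rab geranylgeranyl transferase (1.03 ± 0.21), and Rce1, which trims prenylated proteins (0.98 ± 0.19). Gdi2, the GDP dissociation inhibitor, fell from 540 ± 54.1 CPM (SD, n = 8) to 279 ± 52.5 (SD, n = 6), a log2 difference of -0.95 ± 0.14 (edgeR adjusted p = 2.8e-05). Chm, the escort protein that presents Rabs to the transferase, fell as well (-1.24 ± 0.29). Icmt (0.84, edgeR adjusted p = 0.0018) and Gdi2 (-0.32, edgeR adjusted p = 0.029) also passed with the trend removed, and with the longest coding transcript Icmt passed (0.81) but Gdi2 did not (-0.06, edgeR adjusted p = 0.78).

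Of 44 GEFs, 39 were tested, with 10 higher and 10 lower. Trappc4, a core subunit of the TRAPP complexes that activate Rab1, rose from 48.3 ± 8.46 CPM (SD, n = 8) to 105 ± 15.4 (SD, n = 6), a log2 difference of 1.12 ± 0.15 (edgeR adjusted p = 1.4e-05). With the trend removed it was 0.88 (edgeR adjusted p = 0.00021). Madd, a GEF of Rab3 and Rab27, rose by 1.46 ± 0.28 on the log2 scale and Rgp1, part of the GEF of Rab6, by 1.21 ± 0.24. Rin2, a GEF of Rab5, fell from 241 ± 83.7 to 80.8 ± 28.9 CPM (-1.57 ± 0.26, edgeR adjusted p = 0.0001), and its value was -1.50 with the trend removed (edgeR adjusted p = 0.0011). Dennd2c and Dennd6a, GEFs with a DENN domain, fell by 1.13 ± 0.20 and 1.16 ± 0.22. Madd (1.08, edgeR adjusted p = 0.0086) and Dennd2c (-0.54, 0.04) also passed with the trend removed. Rgp1 (0.27, edgeR adjusted p = 0.44) and Dennd6a (-0.31, 0.25) did not.

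Among 36 GAPs 32 were tested, with 9 higher and 8 lower. Tbc1d22a (2.32 ± 0.43), Tbc1d10a, a GAP of Rab27 and Rab35 (1.52 ± 0.27), and Tbc1d2, a GAP of Rab7 (1.10 ± 0.21), rose, while Evi5 (-1.29 ± 0.30), Rabgap1 (-1.28 ± 0.23) and Rabgap1l (-1.06 ± 0.26) fell. Of these 6, only Tbc1d22a passed with the trend removed (1.47, edgeR adjusted p = 0.016). Tbc1d22a was at 1.94 ± 0.975 CPM in control and 9.92 ± 3.92 in distal libraries, near the lower end of what was tested.

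Of 50 effectors 44 were tested, with 11 higher and 9 lower. Ehbp1l1 (1.56 ± 0.23) and Micall2 (1.51 ± 0.25), which bind Rab8 and related Rabs, and Rab11fip5 (0.94 ± 0.13), which binds Rab11 and Rab25, rose. None of them passed with the trend removed, at 0.59 (edgeR adjusted p = 0.056), 0.53 (0.09) and 0.06 (0.81). Ehbp1l1 was higher with the longest coding transcript, and Micall2 and Rab11fip5 did not pass there either. Myo5a, the myosin that Rab27a, Rab11a and Rab10 engage, fell from 218 ± 15.8 CPM (SD, n = 8) to 105 ± 37.1 (SD, n = 6), a log2 difference of -1.05 ± 0.18 (edgeR adjusted p = 0.00018), and it was at -0.70 with the trend removed (edgeR adjusted p = 0.007) and -0.41 with the longest coding transcript (edgeR adjusted p = 0.058). Appl1 (-1.29 ± 0.24) and Rabep1 (-1.10 ± 0.20), both effectors of Rab5, fell, and neither passed with the trend removed. All 19 tethers, the exocyst and the vacuolar sorting complexes, were tested, with 3 higher (Exoc7 1.33, Vipas39 0.81 and Vps16 0.74) and 4 lower, among them Exoc8 (-1.08), Exoc5 (-0.71) and Vps41 (-0.67). The call of Exoc5 was lost on leaving out any of 7 libraries and that of Vps41 on leaving out any of 11 (edgeR adjusted p up to 0.11 and 0.17). Vipas39 (0.91, edgeR adjusted p = 0.0096) and Exoc8 (-1.24, edgeR adjusted p = 0.0024) passed with the trend removed, and with the longest coding transcript Exoc8 passed (-1.37) but Vipas39 did not (0.69, edgeR adjusted p = 0.051).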

How the data were processed

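Smart-Seq2 cDNA of small cell pools was made into Nextera XT libraries, per the labels' protocols. The authors deposited raw read counts per gene symbol, not normalised. Alignment with HISAT2 to mm10/GRCm38 and counting with featureCounts are named in the submitters' processing notes. The sources used here do not give the use of strand or the treatment of multi-mapping reads. Counts were fitted with edgeR 4.0.16 under R 4.3.3 (TMM scaling, filterByExpr, robust quasi-likelihood F test, Benjamini-Hochberg adjustment over all tested genes, threshold 0.05). SE is the absolute log2 fold change over the square root of F. CPM uses TMM-scaled totals, and reads without molecular identifiers are not independent molecules. Transcripts, GC content and length came from GENCODE M21, with a value for 99.1% of tested genes. The trend removal fitted natural splines (4 degrees of freedom each for GC content and log2 length) to each library's deviations (prior count 2) and entered them as offsets. Code was tested on simulated data. Alternatives included DESeq2 1.42.0 and limma-voom (3.58.1). The members, gene lists and rules were chosen with earlier results of these data known. Described were the 8 members of highest level per kb, up to 10 rises and 10 falls of smallest adjusted p, those called in the same direction with the trend removed, paralogs called in opposite directions, and up to 3 genes per list and direction by p. Other members were named after their values were seen, for their role, their paralog or an alternative fit.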

Additional observations from a re-analysis of the deposited data

Results flagged for a closer look

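The lowest and highest library of each named member was set against the others of its region with Dixon's ratio. Of 42 gene and region groups examined, 6 were past the 95% limit, where chance gives about 1 in 20. Distal library 3, which had the largest distal total count, was the highest for Rab2a at 757 CPM (next 490) and for Rab7 at 315 CPM (next 213), and the lowest for Rab24 at 11.9 CPM (next 26.2). This library also had the highest distal sum of fibroblast markers (181 CPM against a distal median of 21.0) and the smallest distal GC slope (0.22). Control library 1, with the highest control sum of these markers (273 CPM), was the lowest control library for Rab2a (501 CPM) and Rab7 (133 CPM). It was at 5.5 CPM for Rab24. The part of the fibroblast markers and of the GC slope in these values was not tested. Distal library 4 was the lowest for Rab8a at 70.0 CPM (next 88.2). Distal library 1 was the highest for Rab5c at 84.7 CPM (next 58.1), and control library 7 was the highest control library for Rab1b at 82.4 CPM (next 60.9).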

How the results depend on the processing

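The 8 higher and 11 lower Rab genes were 8 and 11 with the size factors or the test of DESeq2, and 9 and 10 with limma-voom, with or without the set as a random block. The counts of higher Rab genes were 4 with the GC and length trend removed, 3 with the longest coding transcript, 5 with the trend removed and a replicate block, 2 with the log2 total count as a covariate, 3 among libraries over 4000000 counts, and 0 with the trend removed on counts summed per set. The counts of lower Rab genes in these settings were 1, 2, 1, 0, 0 and 0. At an unadjusted p under 0.05 in edgeR, the summed and trend-removed fit had 9 higher and 2 lower, the covariate 1 lower and the libraries over 4000000 counts 3 lower. Those libraries are all 8 control libraries but only distal libraries 3 and 4, and the covariate goes with region because total counts did not overlap. The share of all genes at this unadjusted threshold is not given, so these counts cannot be set against the background. Lower Rab genes numbered 3 with counts summed per set, 3 without set Q, 7 without set R and 7 without set S. Leaving out 1 library gave 7 to 12 higher and 7 to 11 lower, the 7 lower without distal library 6. The same limit holds for every fit here, of Rab or list genes, whose share of all genes is not printed above.

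Of the regulator and effector lists, 36 rose and 33 fell. Higher counts were 7 with the trend removed, 6 with the longest transcript, 5 with the block too, 3 with the covariate, 4 among libraries over 4000000 counts, 1 on sums with the trend removed, 11 without set Q and 22 without set T. Lower counts were 11, 10, 8, 1, 3 and 1 in the first 6 of these, 18 with counts summed per set, 15 without set Q and 21 without set S. Leaving out 1 library gave 33 to 41 and 24 to 33.

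These log2 fold changes had the opposite sign. With the trend removed they were Rab14 0.14, Rab2a 0.26, Rab5a 0.15, Rab7 -0.08, Rab40c -0.11 and Exoc5 0.15. On sums with the trend removed they were Rab14 0.38, Rab2a 0.44, Rab5a 0.31, Rab7 -0.10, Rab6a 0.13, Rab8b 0.31, Rab1a 0.05, Rab10 0.10, Exoc5 0.24 and Vps41 0.24. With the replicate block and the trend removed they were Rab14 0.12, Rab2a 0.24, Rab5a 0.17, Exoc5 0.18 and Rab11fip5 -0.03. With the longest transcript they were Rab14 0.15, Rab2a 0.08, Rab5a 0.09, Rab32 0.10, Rab34 -0.14, Rab40c -0.22, Exoc5 0.32 and Rce1 -0.13. With the covariate they were Rab2a 0.17, Rab1a 0.01, Rab32 0.68 and Exoc5 0.52. Rab7 was -0.06 without set Q and -0.13 without set T. Rab32 was 0.04 with upper-quartile scaling, 0.48 among libraries over 4000000 counts, 0.13 without set S and -0.25 to 0.08 on leaving out 1 library, above 0 without control library 6 or 7 or distal library 1, 2, 5 or 6. The cause of these changes was not tested.

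The replicate block alone gave 7 higher and 11 lower Rab genes, and 32 and 31 list genes. Whether the titles' replicate numbers pair the libraries cannot be told from these values. Correlations of same-numbered deviations were -0.017 to 0.110, and distal libraries 2 and 3 of 6 correlated best with their own number. Control libraries 7 and 8 have no distal library of the same number. Depth limits the low members, of which 18 could not be tested or had no count.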
